A study of Mus musculus with 7 samples.

Results

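The genes described here are the axon guidance ligands and receptors: Eph receptors and their ephrin ligands, semaphorins with their plexin and neuropilin receptors, Slit ligands with Robo receptors, and netrins with Unc5 receptors. Members were all probes other than controls whose gene name on the array matched one of these families by its letters, which gave 89 of 55681 probes and 69 of 36406 names. The name pattern also took in Unc5cl, a gene named for its likeness to Unc5c that is not a netrin receptor of the classical set. A gene was tested where at least 1 of its probes was well above background, by the scanner software's flag, on at least 3 of the 7 arrays, and 58 of the 69 genes passed. A probe that passed in only 1 age group could pass by being bright there.

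RNA was measured in satellite cells, the resident stem cells of skeletal muscle, which were sorted from resting muscle of male C57BL/6 mice and read on 1-colour Agilent arrays. Young arrays were labelled as 2, 2 and 3 months old and geriatric arrays as 28, 28, 29 and 30 months old. The labels name no treatment or engineered allele in either group. Sorting took cells positive for integrin alpha 7 and CD34 and negative for the lineage markers CD31, CD45, CD11b and Sca1, and the RNA was amplified from very small cell numbers. Geriatric replicates 1 and 2 carry the same sample name in their descriptions and were averaged, so that each group had 3 samples. How many mice made up a sample is not stated in the labels. The question, from the study's title, is how satellite cells of very old mice, said to pass from reversible quiescence to senescence, differ from young ones.

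Axon guidance molecules were named for steering nerve fibres, and the same families control adhesion, migration and cell shape in many other cells. Ephrins sit in the membrane of one cell and bind Eph receptor tyrosine kinases on a neighbour, secreted class 3 semaphorins bind neuropilins that signal through plexins, other semaphorins bind plexins directly, Slits bind Robo receptors, and netrins bind Dcc, neogenin and Unc5 receptors. In muscle, ephrins are repulsive cues for satellite cells moving along fibres, and semaphorin 3A made by activated satellite cells has been studied for its effect on motor nerve endings.

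Total signal was similar across arrays, with a 75th percentile of 1330 to 1609 intensity units and 38044 to 41289 probes well above background. The averaged geriatric pair correlated at r = 0.992 across probes, whereas the other 20 pairs of arrays correlated at 0.914 to 0.954. All 12 satellite cell markers, Pax7 and Myf5 among them, were well above background on every array and differed by -0.44 to 0.33 log2 units. Of markers of other cells, the endothelial genes Ecscr and Erg, the fibro-adipogenic genes Pdgfra and Dpp4, the Schwann cell gene Cdh19, the macrophage genes C1qa and Lyz2, the tendon genes Tnmd and Kera, and Cd3d, Ms4a1 and Il7r of lymphocytes were above background on no array. Other markers of these cells were measured, and 8 of 10 tested fibro-adipogenic genes were higher in geriatric samples. Linear levels, relative to the 75th percentile, were summed over all 12 listed fibro-adipogenic genes, tested or not. The sum was 32.9 to 43.1 in young and 43.2 to 51.9 in geriatric samples. The same sum was 7.90 to 9.66 against 8.62 to 12.2 for 12 endothelial genes (8 tested). It was 27.3 to 30.3 against 30.6 to 35.1 for 10 Schwann cell genes (8 tested). For 10 pericyte genes it was 43.9 to 61.8 against 52.7 to 62.7, and for 10 macrophage genes (8 tested) 91.8 to 101.5 against 96.1 to 114.9. For 7 tendon genes (4 tested) it was 3.17 to 4.21 against 3.75 to 4.55. For 7 lymphocyte genes (3 tested) it was 0.59 to 0.74 against 0.76 to 0.83. The brightest genes make up most of such a sum. They included Col3a1 (log2 difference -0.13) and Dcn (1.56) in the fibro-adipogenic list and Tek (0.17) in the endothelial list. Pmp22 (0.35) was the brightest of the Schwann cell list and Notch3 (0.30) of the pericyte list. The macrophage sum came mostly from Itgam (0.06), which encodes CD11b, a marker the sort selected against. Median deviation of the 8 tested endothelial genes from their means over samples was 1.56 in geriatric replicate 4 and -0.17 to 0.62 in the others. Fibroblasts, Schwann cells, vessel cells and blood cells express several of the guidance genes below, and their part in the results was not tested. In bulk samples, fewer cells of a type and less RNA per cell cannot be told apart.

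Probes are shown for the 5 genes with an unadjusted limma p under 0.05 and for Efnb2, because these short stretches are what the arrays measured. Each probe is 60 bases long, and its bases 16 to 45 are printed 5′ to 3′, with mm9 coordinates of the whole probe from the array files. Exon or untranslated region of each probe was not analysed here. Epha3 was read at chr16:63545155-63545214 on the minus strand. Sema3a was read at chr5:13473453-13473512 and chr5:13602462-13602521, Sema5b at chr16:35663660-35663719 and chr16:35664281-35664340, Unc5a at chr13:55107318-55107377, and Unc5c at chr3:141497142-141497201 and chr3:141492190-141492249, all on the plus strand. The Efnb2 probes lie on the minus strand at chr8:8620426-8620485 and chr8:8618177-8618236. For genes with 2 tested probes the brighter one, named first, gives the gene's value.
Epha3 probe: tgttcttttctacaactgttgaacaatcca
Efnb2 brighter probe: ttgtagtctgtagcttttccgaccctgggg
Efnb2 dimmer probe: cgttttggttctatgctaaactgtgaagaa
Sema3a brighter probe: ggggctttccatccaatctgcacctatatt
Sema3a dimmer probe: actggagagaaaaatgtaacgatattgctg
Sema5b brighter probe: gcagagaatgggttcttaggtttgagctgg
Sema5b dimmer probe: tgttaagctgtggcattattaattaaagat
Unc5a probe: attttagcggatgtgaatgtaaataaatta
Unc5c brighter probe: acatgactcgcattctttctttcacttgtt
Unc5c dimmer probe: gggaacagagctctagcattacaggggagg

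Most of the guidance genes gave a signal in satellite cells of either age. Of 69 genes, 48 (69.6%, against 64.2% of all names on the array) had a probe well above background on all 7 arrays, 14 on 1 to 6 arrays, and 7 on no array (10.1%, against 15.4%). All 8 ephrins, both neuropilins and all 3 Slits were above background on every array, as were 10 of 14 Eph receptors, 8 of 9 plexins and 11 of 20 semaphorins. The 7 genes with no signal on any array were the receptors Epha6, Epha8, Robo2 and Unc5d, the ligands Sema3e and Sema7a, and Unc5cl. Robo2 was read by 2 probes, neither above background. The other 4 untested genes had scattered signal: Epha10 on 1 young array, Robo4, the endothelial Robo receptor, on geriatric replicate 4 alone, Sema3c on 2 geriatric arrays, and Plxna4 on 1 young and 1 geriatric array through different probes. In geriatric replicate 4 the tested endothelial markers had their highest median, and the part of vessel cells in the Robo4 signal was not tested.

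**Figure D1:**
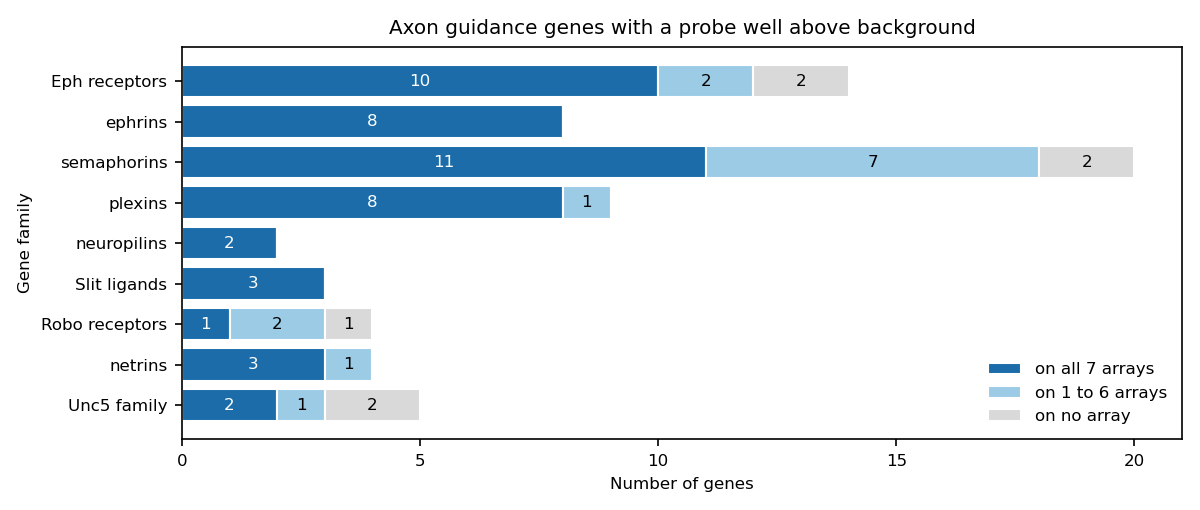
Number of genes (horizontal axis) in each guidance family (vertical axis) that had a probe well above background on all 7 arrays, on 1 to 6 arrays or on none. The ephrins, neuropilins and Slits were above background throughout, and the semaphorins held the most genes seen on only some arrays, 7 of 20.

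None of the 58 tested guidance genes passed the test between geriatric and young samples at an adjusted p of 0.05 (limma, Benjamini-Hochberg over all tested features), where 0.0256% of all 27395 features, 7 in number, passed. At an unadjusted limma p under 0.05 there were 5 members, 8.62% of those tested against 7.23% of all features: Unc5c, Unc5a and Sema5b were higher in geriatric samples (4.42% of all features) and Epha3 and Sema3a lower (2.81%). The samples of the 2 ages did not overlap for 11 members (19.0%, against 12.8% of all features), with 6 higher (7.18%) and 5 lower (5.65%) in geriatric samples. The median log2 difference over members, geriatric minus young, was 0.14, beside -0.0024 for all features, and it stayed at 0.14 with the 2 genes that have only a bound in 1 group set at that bound. Higher means in geriatric samples were found for 32 of 58 members (55.2%, against 49.7%). With 3 samples a group the limma interval is wide: it lay within 1 log2 unit of 0 for 18 members (31.0%, against 52.5% of all features). The median SE was 0.34 for members and 0.28 for all features, and 12 members (20.7%, against 9.02%) differed by more than 1 log2 unit. Tested members were also dimmer, with a median log2 level of -1.82 against -0.99 for all features, and 46.6% against 38.6% below -2. The part of dim signal in these shares was not tested. Leaving out samples raised the unadjusted count to 10 without geriatric replicate 4, 17.2% against 7.72% of all features there. Without 1 of the 3 young replicates, geriatric replicate 3, geriatric replicate 4 or the averaged pair, 16 to 21 genes did not overlap. These were 27.6% to 36.2% of members, where 21.6% to 25.1% of all features did not overlap. All values below are log2 differences or log2 levels, where a level is the signal relative to the array's 75th percentile, and sample values are listed as young replicates 1 to 3, then the averaged geriatric replicates 1 and 2, geriatric replicate 3 and geriatric replicate 4. Levels of different probes are not comparable with each other.

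**Figure D2:**
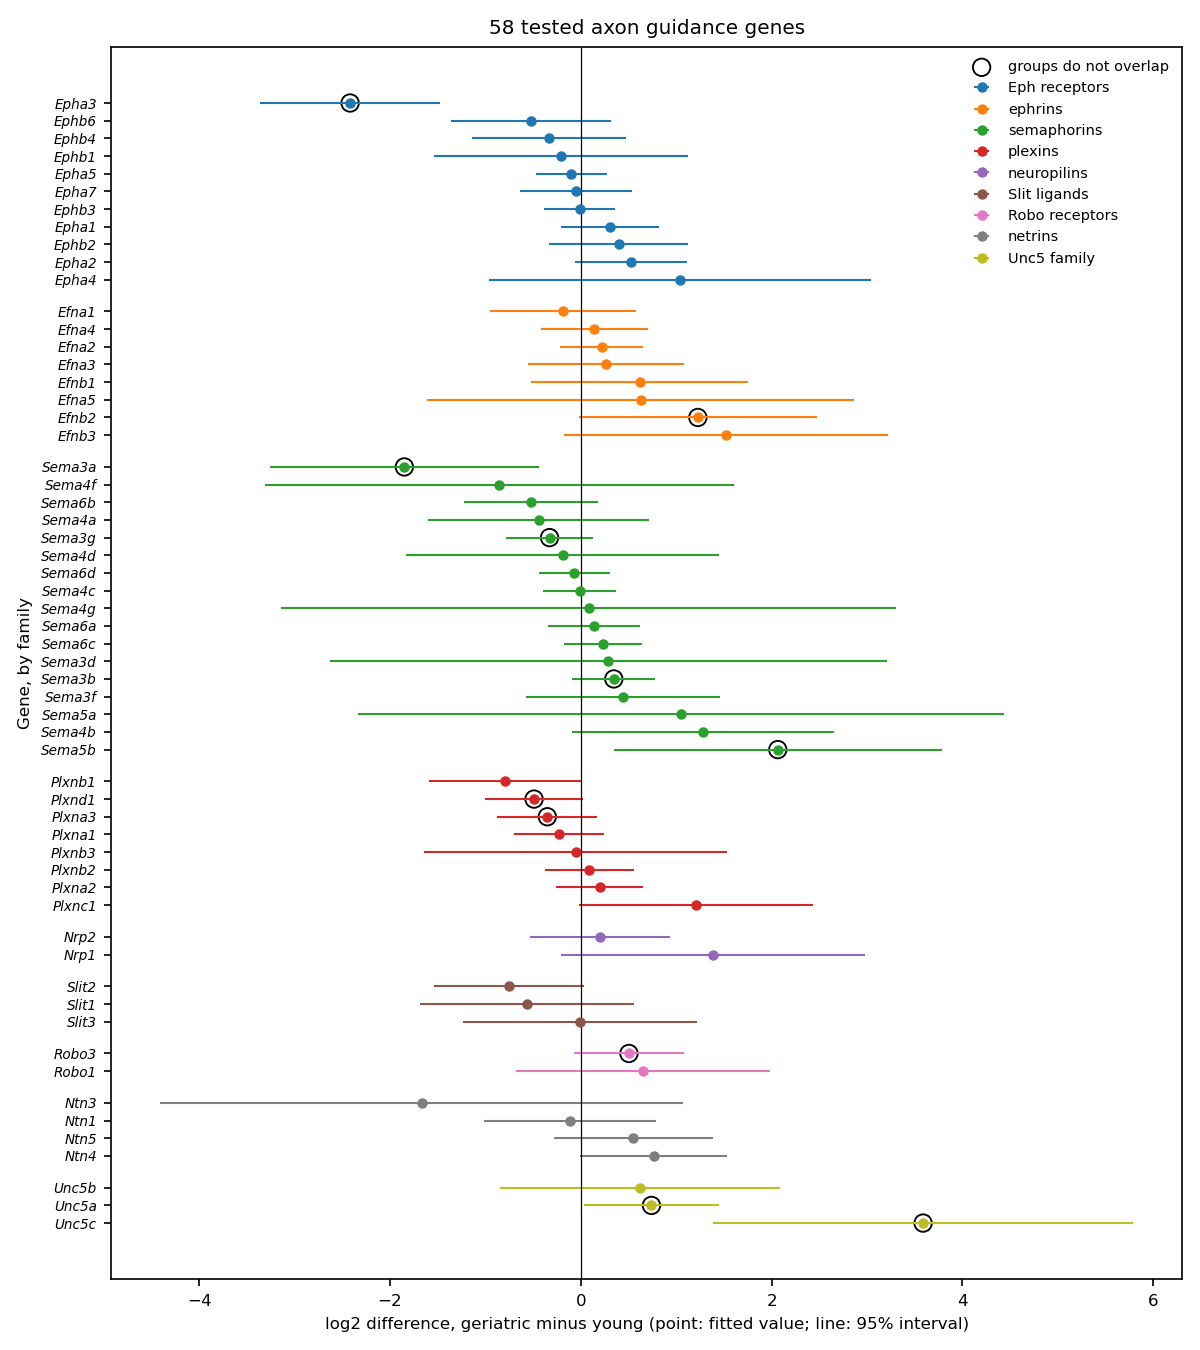
Fitted log2 difference, geriatric minus young (horizontal axis), for each of the 58 tested genes (vertical axis, by family), with 3 samples a group. Lines are 95% intervals and circles mark the 11 genes whose groups did not overlap. Most intervals cross 0, and Epha3 (-2.42) and Unc5c (3.59) lie farthest out, each being below background throughout 1 group, so that their points are no measured size.

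Ephrins, the membrane-bound ligands of the Eph receptors, had a median difference of 0.44, with 7 of 8 higher in geriatric samples. The median was 0.22 without geriatric replicate 3. The split of 7 to 1 was the same under each scaling and background correction tried. It did not hold for geriatric replicate 1 alone, the only geriatric array that shares the first position number in its description with the young arrays: there 3 ephrins were higher than the young mean and 5 lower, with a median of -0.02. The 3 ephrin-B ligands, which span the membrane, had a median of 1.23 (0.62 to 1.52), whereas the 5 ephrin-A ligands, held by a lipid anchor, had a median of 0.22. This contrast between subclasses was not tested.

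Efnb2, which encodes the ephrin-B2 of arterial and pericyte membranes, was measured at -2.08, -2.33 and -3.58 in young and -0.75, -1.57 and -1.99 in geriatric samples. The groups did not overlap, but the highest young and lowest geriatric values lay close together. Its difference was 1.23 ± 0.51 (SE, n = 3 per group), with a limma adjusted p of 0.69, and it was 0.77 without young replicate 3. The dimmer Efnb2 probe also separated the groups, at -5.14, -5.16 and -8.08 in young against -1.73, -1.74, -4.72 and -3.13 on geriatric arrays 1 to 4, a difference of 2.93 ± 1.09. Only 2 young arrays read this probe well above background. The -8.08 of young replicate 3 lay below the lowest signal flagged there (-6.09), so that 2.93 is no measured size. Efnb1, an ephrin needed for tissue boundaries in the embryo, was at -1.17, -1.83 and -1.69 in young and -1.91, -0.28 and -0.65 in geriatric samples. Here the groups overlapped, because the averaged geriatric pair was the lowest of the 6 values, and the difference was 0.62 ± 0.46. It was 0.28 without geriatric replicate 3 and -0.29 for geriatric replicate 1 against the young mean. Efnb3 differed by 1.52 ± 0.69 with overlapping groups, and the ephrin-A genes by -0.19 (Efna1) to 0.63 (Efna5).

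Eph receptors, the kinases that bind ephrins, were mixed, with 4 higher and 7 lower and a median of -0.05. Epha3, an EphA receptor known from motor axon and heart development, had the smallest adjusted p of all members, 0.23 by limma. Young samples stood at -4.88, -4.44 and -5.30 and geriatric samples at -7.90, -7.31 and -6.67. Each of the 3 young arrays read the probe well above background and none of the 4 geriatric arrays did, a pattern found for 0.303% of all tested features. On processed signals the gene was at least 1.73-fold lower in geriatric samples. This bound sets the young mean against the lowest signal flagged well above background on each geriatric array. Measured means were -4.87 ± 0.43 and -7.29 ± 0.61 (SD, n = 3 each). The fitted difference was -2.42 ± 0.38 on processed signals, -0.58 with normexp background correction and -0.67 in the authors' deposited value table. Both of the latter were smaller than the bound, which holds for processed signals only. The fitted difference on processed signals lay between -2.73 and -2.12 as samples were left out, with limma adjusted p from 0.18 to 0.49.

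Ephb3, a receptor for B-class ephrins, was at 7.28, 7.26 and 7.13 in young and 7.15, 7.17 and 7.31 in geriatric samples. These values overlapped fully and bounded the difference tightly, at -0.01 with a 95% interval of -0.38 to 0.36. The sign of so small a value turned with quantile scaling (0.030) and in the authors' table (0.012). Epha4, a receptor for ephrins of both classes, differed by 1.04 ± 0.81, Epha2 by 0.53 ± 0.24 and Ephb6, which lacks kinase activity, by -0.52 ± 0.34. Probes of 1 gene could differ in this family: Epha7 differed by -0.05 at its brighter probe and 1.18 ± 0.51 at the dimmer, while the second Epha5 probe was above background on no array.

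Semaphorins were the largest family, with 9 of 17 tested genes higher, 8 lower and a median of 0.08, which was close to 0 in the authors' table and -0.18 for geriatric replicate 1 against the young mean. The class 3 members are secreted. Among them Sema3a, a repellent of motor and sensory axons, was measured at 1.52, 0.62 and 1.02 in young and -2.02, -0.0048 and -0.37 in geriatric samples. All geriatric values lay below all young values, and the averaged pair was the lowest by a wide margin. Its difference was -1.85 ± 0.57 (adjusted p = 0.56, limma), -1.24 without geriatric replicates 1 and 2, and -3.07 for geriatric replicate 1 against the young mean. The dimmer Sema3a probe gave -0.34, -1.15 and -2.19 on young arrays against -8.00, -3.85, -2.36 and -1.20 on geriatric arrays 1 to 4. These values overlapped, and geriatric replicate 1 was not well above background there, so that the difference of -1.93 carried an SE of 1.27.

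Sema3b was at 2.71, 2.98 and 3.11 in young and 3.31, 3.34 and 3.18 in geriatric samples, a separation without overlap of 0.35 ± 0.18 (adjusted p = 0.75). Sema3g, a semaphorin of vessel cells, was at -3.24, -3.44 and -3.65 in young and -3.94, -3.67 and -3.70 in geriatric samples, a difference of -0.33 ± 0.19 (adjusted p = 0.78) that was -0.13 with normexp correction. In both genes the nearest values of the 2 ages were less than 0.1 apart. Sema3f, which signals through neuropilin 2, differed by 0.45 ± 0.41 with overlap.

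Semaphorins of classes 4 to 7 are bound to membranes. Sema5b, a transmembrane semaphorin with thrombospondin repeats, was at -4.91, -6.94 and -6.53 in young and -4.50, -4.71 and -2.98 in geriatric samples. All 4 geriatric arrays and only 1 young array read it well above background. Its difference was 2.06 ± 0.70 (adjusted p = 0.60), 0.87 with normexp correction, and its second probe gave 1.02 ± 1.27 with overlapping groups. Sema4c, a plexin-B2 ligand, was at 7.05, 7.07 and 6.93 in young and 6.96, 6.90 and 7.14 in geriatric samples. The groups overlapped, and the 95% interval of the difference ran from -0.40 to 0.37 around -0.01, a sign that turned with quantile scaling (0.026). Sema4b differed by 1.28 ± 0.56, Sema6b by -0.52 ± 0.28 and Sema6a by 0.14 ± 0.20, all with overlap. Sema4f differed by -0.85 ± 1.00 at its brighter probe. At its dimmer probe, -4.06, -4.55 and -4.46 on young arrays stood against -6.23, -6.73, -5.41 and -5.72 on geriatric arrays, none of which was well above background, and the gene was at least 2.28-fold lower there.

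Plexins, the signalling receptors for semaphorins, had a median of -0.14, with 5 of 8 tested genes lower, and the median was -0.34 without geriatric replicate 3. Plxnd1, the receptor of endothelial cells that also binds Sema3e, was at 2.66, 2.31 and 2.61 in young and 2.22, 1.74 and 2.15 in geriatric samples. Every geriatric value was below every young one, by a difference of -0.49 ± 0.21 (adjusted p = 0.70), and the second probe differed by -0.38 ± 0.31. Plxna3, a partner of neuropilins, was at 0.47, 0.29 and 0.50 in young and 0.28, 0.22 and -0.29 in geriatric samples, a difference of -0.35 ± 0.21 that did not overlap by a margin of under 0.1 and was -0.17 without geriatric replicate 4. Plxnb1, the Sema4d receptor, was at 0.36, 0.58 and -0.37 in young and -0.80, -0.81 and -0.20 in geriatric samples. Its groups overlapped through young replicate 3, and it differed by -0.79 ± 0.32 (adjusted p = 0.69). Plxnc1 differed the other way at both probes, by 1.21 ± 0.50 and 1.00 ± 0.44.

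Neuropilins, the co-receptors of class 3 semaphorins, were both higher on average, without passing the test. Nrp2 was at -2.72, -2.71 and -2.58 in young and -2.11, -2.20 and -3.09 in geriatric samples. The first 2 geriatric values lay above the young ones and geriatric replicate 4 below them, which left a difference of 0.20 ± 0.30, or 0.52 without geriatric replicate 4 and 0.026 without the averaged pair. Nrp1 was at -5.28, -2.66 and -4.14 in young and -2.82, -2.53 and -2.57 in geriatric samples, a difference of 1.39 ± 0.65 with the young samples widely spread (adjusted p = 0.73).

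**Figure D3:**
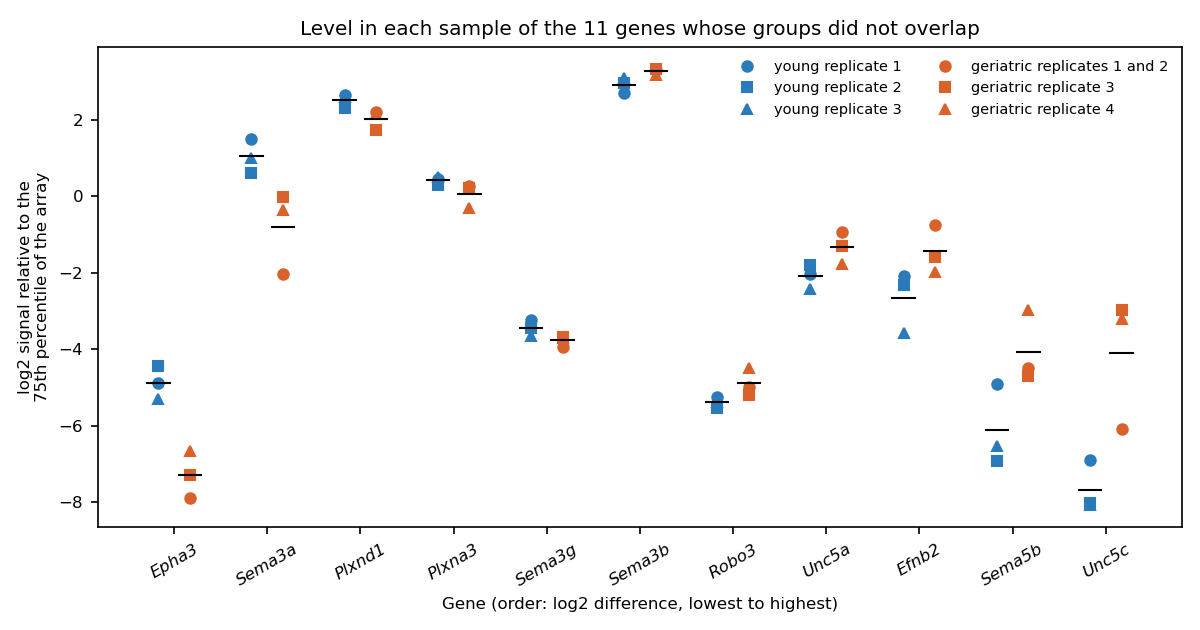
Log2 signal relative to each array's 75th percentile (vertical axis) in every sample for the 11 genes whose groups did not overlap (horizontal axis, ordered by difference). Points are samples, blue for young and orange for geriatric, and bars are group means of 3 samples. The gap between groups is widest for Epha3 and narrow for Unc5a, Plxna3, Sema3g, Robo3, Sema3b, Plxnd1 and Efnb2. The averaged geriatric pair stands apart from the other geriatric samples in Sema3a and Unc5c.

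Slit ligands, large secreted proteins, had a median of -0.57 (-0.31 without young replicate 1), with all 3 lower in geriatric samples except that 1 of the 3 was higher with normexp correction or in the authors' table. Slit2 was at -3.03, -2.50 and -1.88 in young and -3.39, -3.02 and -3.26 in geriatric samples. The values overlapped only between young replicate 1 and geriatric replicate 3, with a difference of -0.75 ± 0.32 (adjusted p = 0.70), or -0.46 without young replicate 3. Slit1 differed by -0.57 ± 0.46 and Slit3 by -0.01 ± 0.50. Robo1 and Robo3 were the tested members of the Robo family. Robo3, a receptor that modulates midline crossing, was at -5.24, -5.54 and -5.39 in young and -4.99, -5.19 and -4.48 in geriatric samples, which did not overlap, by a margin of under 0.1, and differed by 0.50 ± 0.24 (adjusted p = 0.73). The difference was 0.30 without geriatric replicate 4 and 0.18 in the authors' deposited value table. Robo1 was at -3.09, -1.70 and -1.21 in young and -1.66, -0.78 and -1.59 in geriatric samples, overlapping, with a difference of 0.65 ± 0.54. Leaving out young replicate 1 gave 0.11, leaving out geriatric replicate 3 gave 0.37, and 1.05 was the value without young replicate 3.

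Netrins are laminin-related secreted ligands, and 2 of 4 were higher. Ntn4, a netrin of basement membranes, was at 0.02, 0.29 and -0.22 in young and 1.26, 0.89 and 0.22 in geriatric samples. Only geriatric replicate 4 reached into the young range, and the difference was 0.76 ± 0.31 (adjusted p = 0.69), or 1.25 for geriatric replicate 1 against the young mean. Ntn5 was at 0.39, 0.77 and 0.92 in young and 1.91, 0.85 and 0.97 in geriatric samples, which overlapped, with a difference of 0.55 ± 0.34 and the averaged geriatric pair highest. It was 0.22 without that pair and 1.27 for geriatric replicate 1 against the young mean. Ntn1, the classical attractant, differed by -0.11 ± 0.36 at its brighter probe and 0.48 ± 0.42 at the dimmer. Ntn3 differed by -1.67 ± 1.11, and geriatric replicate 3, at -7.21, was the value apart.

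Unc5 receptors mediate the repulsive response to netrins, and the 3 tested ones were higher on average in geriatric samples, under each setting that kept all samples and all 3 genes; the filter on all 7 arrays left out Unc5c. Unc5c was at -6.91, -8.04 and -8.08 in young and -6.08, -2.98 and -3.20 in geriatric samples. No young array read it well above background, and geriatric replicates 1, 3 and 4 did, a pattern of no young and at least 3 geriatric arrays found for 0.478% of tested features. On processed signals it was at least 3.46-fold higher in geriatric samples by its brighter probe and at least 2.56-fold by its dimmer. The dimmer probe gave -7.88, -7.95 and -7.13 on young arrays against -5.27, -5.80, -4.05 and -3.98 on geriatric arrays. Measured means of the brighter probe were -7.68 ± 0.66 and -4.09 ± 1.73 (SD, n = 3 each). The fitted difference was 3.59 ± 0.90 with a limma adjusted p of 0.44. It was 1.22 with normexp correction, 1.14 in the authors' deposited value table and 1.80 for geriatric replicate 1 against the young mean.

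Unc5a was at -2.02, -1.78 and -2.42 in young and -0.94, -1.29 and -1.78 in geriatric samples. The groups touched without overlapping, since young replicate 2 and geriatric replicate 4 were nearly equal, and the difference was 0.74 ± 0.29 (adjusted p = 0.67). It was 1.16 for geriatric replicate 1 against the young mean. Unc5b, the vascular netrin receptor, differed by 0.62 ± 0.60 with overlap and by 1.69 for geriatric replicate 1 alone. The summed level of the 12 listed fibro-adipogenic markers was 33.6, 43.1 and 32.9 in young and 43.9, 51.9 and 43.2 in geriatric samples. It was highest in geriatric replicate 3, while geriatric replicate 4 and young replicate 2 had nearly the same sum. The part of such cells in the Unc5 values was not tested.

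Of 19 members with several probes, 14 had 2 tested probes, and 9 of these gave differences within 0.5 log2 units of each other, with a median gap of 0.33. Signs were opposite in 3 genes, Epha7, Ntn1 and Sema6d.

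**Figure D4:**
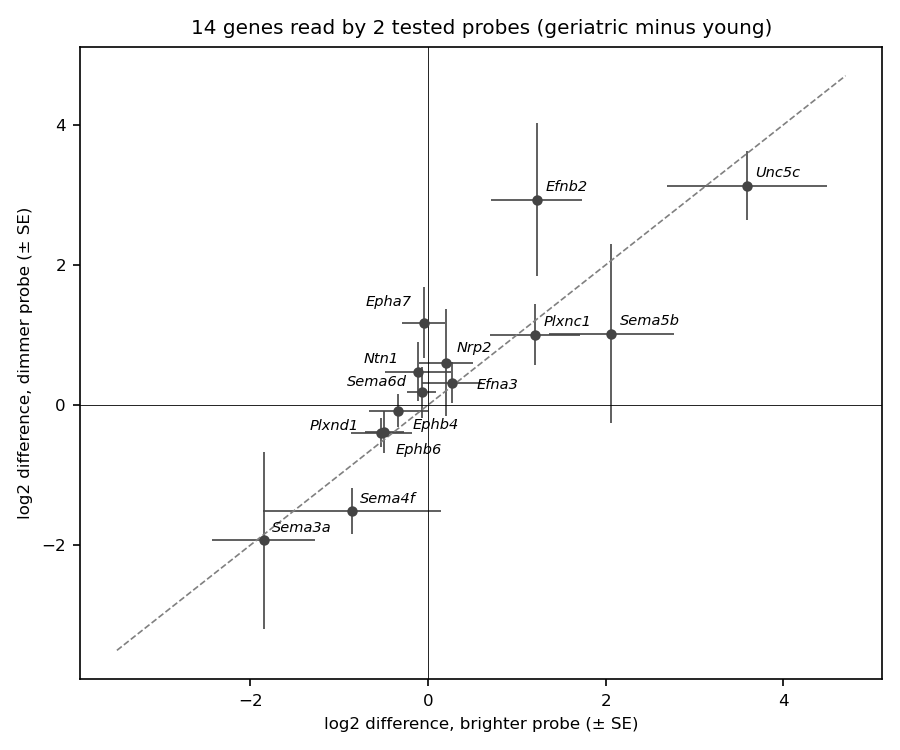
Log2 difference, geriatric minus young, at the dimmer probe (vertical axis) against the brighter probe (horizontal axis) for the 14 genes with 2 tested probes. Points are genes, lines are SE and the dashed line marks equality. Unc5c is high and Sema3a low at both probes. Efnb2 has 2.93 at its dimmer probe, which only 2 young arrays read well above background, and 1.23 at its brighter one.

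Other genes of the pathway were taken from a list of co-receptors, adaptors and cytoskeletal effectors outside the name pattern. Their spread was nearer that of all features than that of members. Of tested partners 10.1% differed by more than 1 log2 unit, against 20.7% of members and 9.02% of all features. The interval lay within 1 log2 unit of 0 for 49.4% of them, against 31.0% and 52.5%. Of 83 on the array 79 were tested, none passed the test, 48 were higher and 31 lower, and the median difference was 0.08. An unadjusted limma p under 0.05 was found for 6 (5 higher, 1 lower), 7.59% against 7.23% of all features, and 15 did not overlap, 19.0% against 12.8%. Among the netrin receptors outside the Unc5 family, Dcc differed by 0.11 ± 0.15 and neogenin (Neo1) by 0.10 ± 0.21. Flrt3, a membrane protein that binds Unc5 receptors and Robo1, was at -1.16, -0.90 and -1.79 in young and 0.12, 0.16 and 0.39 in geriatric samples. The 2 ages were well apart, with a difference of 1.50 ± 0.27 (adjusted p = 0.27, limma). Nrcam, an adhesion molecule that associates with neuropilin 2, was at -8.06, -4.54 and -8.28 in young and -2.02, -2.38 and -2.99 in geriatric samples. Only 1 young array read Nrcam above background against all 4 geriatric arrays, and the difference was 4.49 ± 1.04 (adjusted p = 0.38). The other 2 young values were not well above background, and the difference was 2.05 with normexp correction and 1.97 in the authors' deposited value table. Dab1, an adaptor of reelin signalling, was above background on no young and 3 geriatric arrays. On processed signals it was at least 4.18-fold higher (limma adjusted p = 0.30). Its fitted difference of 2.44 was 1.14 with normexp correction, 1.06 in the authors' deposited value table and 0.27 for geriatric replicate 1 against the young mean. Further partners without overlap included Rgs3 (1.46 ± 0.41), which links ephrin-B to G proteins, the plexin-binding GTPase Rhod (0.96 ± 0.32), the focal adhesion kinase Ptk2 (-0.51 ± 0.21) and the collapsin response mediator Dpysl4 (0.41 ± 0.18). Ptk2 was at -0.046 with its probes averaged, and Rhod at 0.40 for geriatric replicate 1 against the young mean.

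Promoters of the members were read from RefSeq sequence of GRCm38.p6, as 300 bases from 250 before to 50 after each start, with 60 of 69 genes matched and 76 promoters. A ratio of observed to expected CpG above 0.6 was found in 56.6% of member promoters and 35.8% of all 32851 promoters of that length. By signal on the arrays it was found in 62.3% of 53 promoters of genes above background on all 7 arrays, 53.3% of 15 promoters of genes seen on some arrays and 25% of 8 promoters of genes seen on none. The E-box CAGCTG, which reads the same on both strands, was in 15.8% of member and 16.3% of all promoters, and TGGGAA, searched on both strands, in 22.4% and 25.6%. The 250 bases before the start are printed for Epha3, Unc5c and Sema3a because the first pair are CpG-rich and Sema3a is CpG-poor, with every CpG in capitals. They hold 16, 23 and 2 CpGs, at chr16:63864176-63864425 on the minus strand, chr3:141465314-141465563 on the plus strand and chr5:13396534-13396783 on the plus strand. The differences of these genes point in opposite directions for the pair of CpG-rich promoters, with Epha3 lower and Unc5c higher in geriatric samples.
Epha3 promoter: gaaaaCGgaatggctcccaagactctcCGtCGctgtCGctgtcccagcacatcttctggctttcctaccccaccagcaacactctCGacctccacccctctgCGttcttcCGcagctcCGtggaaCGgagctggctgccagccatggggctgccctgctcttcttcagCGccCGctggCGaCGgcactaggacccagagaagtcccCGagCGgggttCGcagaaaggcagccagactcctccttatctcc
Unc5c promoter: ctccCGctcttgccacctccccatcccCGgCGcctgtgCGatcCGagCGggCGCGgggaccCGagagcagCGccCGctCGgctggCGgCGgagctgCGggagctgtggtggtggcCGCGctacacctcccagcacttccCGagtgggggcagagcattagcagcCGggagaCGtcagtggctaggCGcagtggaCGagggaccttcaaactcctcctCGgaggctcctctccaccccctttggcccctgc
Sema3a promoter: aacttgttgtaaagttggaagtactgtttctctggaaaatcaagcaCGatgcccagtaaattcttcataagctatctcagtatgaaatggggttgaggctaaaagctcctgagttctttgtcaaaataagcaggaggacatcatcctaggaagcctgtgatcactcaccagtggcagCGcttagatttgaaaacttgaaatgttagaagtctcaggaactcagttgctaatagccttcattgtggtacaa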

How the data were processed

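Arrays were read by Feature Extraction (Agilent, version 10.7.3.1), and the processed spot intensity had background subtracted and was detrended, with surrogate values near background, per the file headers. The authors' deposited value table holds log2 values with a median of 8.02 per array that followed log2 mean signal. How they were made is not stated. Coordinates are mm9, per the file headers.

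Levels are log2 processed signal minus each array's 75th percentile. Controls were dropped, as were 124 to 229 outlying spots per array, spots of a probe were averaged, and no spot was saturated. A gene was read by its brightest probe well above background on at least 3 of 7 arrays, which gave 27395 tested features. Signals of geriatric replicates 1 and 2 were within 2 combined errors at 95.4% of probes (other pairs 59.6% to 67.0%), and the pair counted as 1 sample.

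Groups were compared with limma 3.58.1 (lmFit, then eBayes; 2-sided tests; Benjamini-Hochberg adjustment over the 27395 features; threshold 0.05) in R 4.3.3 (tables handled by data.table, version 1.17.8), and figures drawn with matplotlib 3.10.9 in Python 3.11.15. The fit was tested on simulated data in which 200 features were changed by a known size. At the adjusted threshold it called 0% of changes of 1 log2 unit, 54% of changes of 2 and 88.5% of changes of 4. p-values reflect only the spread among the samples at hand, which may be technical, and the number of arrays limits precision. All arrays share 1 slide and scan date. A probe below background throughout a group has only a bound, given as "at least", which holds for processed signals. Normexp correction and the authors' table gave differences smaller than this bound for Epha3, Unc5c and Dab1. Sample numbers shared by the descriptions did not pair the groups (correlations of deviations -0.04, 0.03 and 0.04). Alternatives changed background correction, scaling, source of values, probe filter, probe choice, replicates, block and position number.

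Members and lists were chosen with earlier results of these data known. Genes given in every sample were those without overlap, with unadjusted p under 0.05, measured in 1 group only or with the highest level of a family, filled to 20 by smallest p, and 8 partners, not all reported here; other members with values were chosen after these were seen. Names are those of the array design.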

Additional observations from a re-analysis of the deposited data

How the results depend on the processing

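No member passed the adjusted threshold under any of the 18 other settings, where the smallest member adjusted p (limma) was 0.085, for Epha3 with geriatric replicates 1 and 2 as 2 samples. Members with unadjusted p under 0.05 numbered 10 with normexp (8.01% of all features), 8 when all 7 arrays had to be above background (7.82%), 14 with 2 separate samples (11.1%) and 9 with the replicate block (7.58%), beside 5; leaving out samples gave 5 to 10. Members without overlap numbered 7 with the 7-array filter (14.6%, against 12.9% of all features), and 11 to 21 as samples were left out (12.4% to 25.1% of all features). Their share, 19.0% in the main setting, was 22.4% with normexp (13.6% of all features) and 22.4% in the authors' table (12.8%). It was 21.7% with no filter (19.9%), 20.7% with scaling to the median of detected probes (12.8%) and 17.2% with 2 separate samples (11.2%). The member median of 0.14 was 0.12 with normexp, 0.12 with quantile scaling, 0.058 in the authors' table, 0.20 with no filter, 0.19 with probes averaged, 0.17 with 2 separate samples and -0.0032 with the position number as a block; leaving out samples gave 0.090 to 0.20, and 0.047 to 0.13 for the partners. The replicate block left 0 of all features past the adjusted threshold, beside 7, and no member was called with or without it. Signs reversed for Ephb3 with quantile scaling (0.030) and in the authors' table (0.012), Sema4c with quantile scaling (0.026) and Efnb1 with the position block (-0.29); leaving out single samples gave -0.059 to 0.022 for Ephb3 and -0.082 to 0.037 for Sema4c. Without geriatric replicates 1 and 2 together, 17 members did not overlap, the median was 0.11, Ephb3 was 0.016 and Sema4c 0.0057. The other 25 named genes kept their sign under every setting that gave them a value. The cause was not tested. Position cannot be told apart from age beyond geriatric replicate 1. Sizes of members near background, such as Epha3 and Unc5c, depend on how background was subtracted.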
